A study of Mus musculus with 14 samples.

Results

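Expression of 8 adhesion genes was followed in T cells sorted from mouse tumours. The genes are Selplg, Itgb7, Itga4, Itgae, Itgb1, Itgal, Itgb2 and Cd44, a set of integrins and adhesion molecules of effector T cells that was chosen with earlier results of these data known and taken from the 25124 genes of the count and RPKM tables. All 8 were found there, and all 8 were among the 13434 genes that passed the filter on low counts. The tumours grew from AE17-OVA, a mouse mesothelioma line, under the skin of female C57BL/6 mice aged 8 to 12 weeks. All groups carried the genotype labelled GATIR Foxp3Cre-rfp Gata3Cre-yfp, in which a red fluorescent protein reports Foxp3, the transcription factor of regulatory T cells (Tregs). On day 10, mice were injected intraperitoneally with 200 µg of either anti-PD-L1 (clone MIH5) or the isotype control 2A3. The labels place tumour collection at day 13, without saying uniformly from which event that day is counted.

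CD4 T cells outside the Treg gate, Tregs without surface PD-1 (PD-1- Tregs) and Tregs with it (PD-1+ Tregs) were separated by flow cytometry, using CD4, CD25, PD-1 and the reporter. The 14 libraries comprised 2 isotype and 3 treated libraries of CD4 T cells, 2 and 2 of PD-1- Tregs, and 2 and 3 of PD-1+ Tregs. The series calls its replicates biological; their animals or pools are unstated, so p-values describe only how these libraries vary, which may be technical.

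A T cell leaves the blood in steps. Selplg encodes PSGL-1, a mucin-like protein that, once it carries the right sugars, binds selectins and lets the cell roll along the vessel wall. Integrins, each a pair of an α and a β chain, then arrest it: Itgal with Itgb2 forms LFA-1, which binds ICAM molecules, Itga4 pairs with Itgb1 to bind VCAM-1 and fibronectin or with Itgb7 to bind the gut addressin MAdCAM-1, and Itgae pairs with Itgb7 to bind E-cadherin on epithelium. Cd44 encodes the receptor for the matrix sugar hyaluronan and is a classic marker of T cells that have met antigen.

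On the RefSeq annotation of GRCm38.p6 (mm10), Selplg lies on chromosome 5 from 113817798 to 113832528 (minus strand) and Itgb7 on chromosome 15 from 102215994 to 102233405 (minus strand). Itga4 lies on chromosome 2 from 79255426 to 79333114 (plus strand), Cd44 on chromosome 2 from 102811141 to 102901669 (minus strand) and Itgae on chromosome 11 from 73090505 to 73147449 (plus strand). Itgb1 lies on chromosome 8 from 128685654 to 128733579, Itgal on chromosome 7 from 127296139 to 127335137 and Itgb2 on chromosome 10 from 77530329 to 77565708, all on the plus strand. In GENCODE, Itga4 overlaps Cerkl, Itgae overlaps Haspin and Cd44 overlaps the small RNA gene Gm23731, each on the opposite strand. The counting's use of strand was not stated, so reads of those pairs cannot be told apart, and the values of these 3 genes carry that uncertainty.

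The β chains Itgb7 and Itgb1 compete for the same α4 chain, and their levels differ most in treated PD-1- Tregs, so their promoter windows are shown. The RefSeq promoter table (GRCm38.p6, 250 bases before to 50 bases after a start site) matched 4 of the 8 genes, Itgb7, Itga4, Itgb1 and Cd44. The others were Selplg, Itgae, Itgal and Itgb2. Capitals mark matches to 3 motifs searched on both strands, none overlapping another: TGTGGT (Runx), CCGGAAG (Ets) and GGGCGG (GC box). The window of Itgb7 is chr15:102231886-102232185 on the minus strand, and that of Itgb1 is chr8:128685404-128685703 on the plus strand.
Itgb7: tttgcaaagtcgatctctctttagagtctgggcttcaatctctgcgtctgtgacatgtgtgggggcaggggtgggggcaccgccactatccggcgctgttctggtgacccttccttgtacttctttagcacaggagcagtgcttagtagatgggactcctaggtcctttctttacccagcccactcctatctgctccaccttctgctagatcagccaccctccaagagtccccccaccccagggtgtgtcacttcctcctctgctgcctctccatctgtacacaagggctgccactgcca
Itgb1: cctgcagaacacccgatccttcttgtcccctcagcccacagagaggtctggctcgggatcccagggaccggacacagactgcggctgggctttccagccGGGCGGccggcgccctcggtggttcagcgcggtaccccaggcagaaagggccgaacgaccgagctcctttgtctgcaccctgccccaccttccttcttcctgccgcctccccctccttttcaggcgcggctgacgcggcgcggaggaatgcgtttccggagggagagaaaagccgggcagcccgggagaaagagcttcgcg
The Itgb1 window holds 1 GC box and is 67.3% G and C. The Itgb7 window is 56.3% G and C and holds none of the 3 motifs, which says only that these letters are not in it. The Itgb1 window spans the annotated start of its gene (128685654). The Itgb7 window lies inside its gene, downstream of the annotated start (102233405 on the minus strand), so these windows are unlike in position. Of all 32851 windows of that length in the table, 35.7% hold GGGCGG, 16.8% TGTGGT and 8.9% CCGGAAG, and the median content of G and C is 52.7%. The Itga4 window holds 1 GC box and 1 TGTGGT on the reverse strand, and the Cd44 window 1 GC box.

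Before the results, 3 libraries need naming. Total counts ran from 10638848 to 15030804 per library, and the number of genes with a count was 8027 to 8801 in PD-1- Tregs, 9662 to 11312 in PD-1+ Tregs and 12119 to 14535 in CD4 T cells, without overlap. The zeros of single genes in PD-1- Tregs stand beside this difference, whose part in them was not tested. Replicates of a group also differed unequally. The chi-square per degree of freedom between the counts of 2 replicates was 325 and 451 in PD-1- Tregs, 148 to 231 in PD-1+ Tregs and 27.7 to 76.9 in CD4 T cells. The main tests share 1 spread per gene over all groups, so p-values in PD-1- Tregs rest partly on the other populations. Although the labels name female mice, the summed level of 4 Y-linked genes was 208 CPM (the count scaled to a library of 1e+06) in treated CD4 T cells replicate 3, 249.5 CPM in treated PD-1- Tregs replicate 2 and 285 CPM in treated PD-1+ Tregs replicate 3, and at most 0.0849 CPM elsewhere. These 3 share the bracketed number 3 in their titles, and all are treated. Several results on the adhesion genes followed here are therefore given with and without them. Calls of single genes from the other lists, such as Icam1, Cd82, Cd6, Cd151, Jaml, Cd69 and Galnt1, are given only with all 3 included. Il2ra, which encodes CD25, was at 192 to 662 CPM in Tregs and 13.4 to 79.5 CPM in CD4 T cells, without overlap. Pdcd1, which encodes PD-1, was at 21.7 to 46.5 CPM in PD-1- Tregs and 85.6 to 246 CPM in PD-1+ Tregs, and Cd4 was found in all 14 libraries. Foxp3 was at 114 to 198 CPM in PD-1- Tregs, 15.9 to 156 CPM in PD-1+ Tregs and 16.3 to 55.0 CPM in CD4 T cells, so in PD-1+ Tregs the defining Treg gene overlapped with the level outside the gate.

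Levels of different genes are compared per length. In RPKM (reads per kilobase, scaled to mapped reads) over all 14 libraries, Selplg stood at 296 ± 139 (SD, n = 14), Itgb2 at 214 ± 62.7 and Itgb7 at 208 ± 108. Itgb1 (66.5 ± 35.1), Cd44 (63.7 ± 28.2) and Itgal (46.7 ± 16.9) came next, followed by Itga4 at 13.0 ± 5.47 and Itgae at 3.64 ± 4.47. Neighbours in this order differed by less than the larger of their SDs, apart from Itgb7 against Itgb1, Itgal against Itga4 and Itga4 against Itgae. The order differed by group: in isotype PD-1+ Tregs Itgb2 (197 RPKM) and Itgb7 (142 RPKM) stood above Selplg (109.98 RPKM), and in isotype PD-1- Tregs Selplg (179 RPKM) was near Itgb2 (175 RPKM). Within libraries the RPKM of Itga4 was 0.0308 to 0.327 times that of Itgb7 and 0.108 to 1.22 times that of Itgb1, and that of Itgae 0 to 0.135 times that of Itgb7. Among the genes found in every library, the ratio of highest to lowest level was widest for Cd44 (35.1 to 575 CPM) and narrowest for Itgb2 (372 to 1057 CPM).

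**Figure D1:**
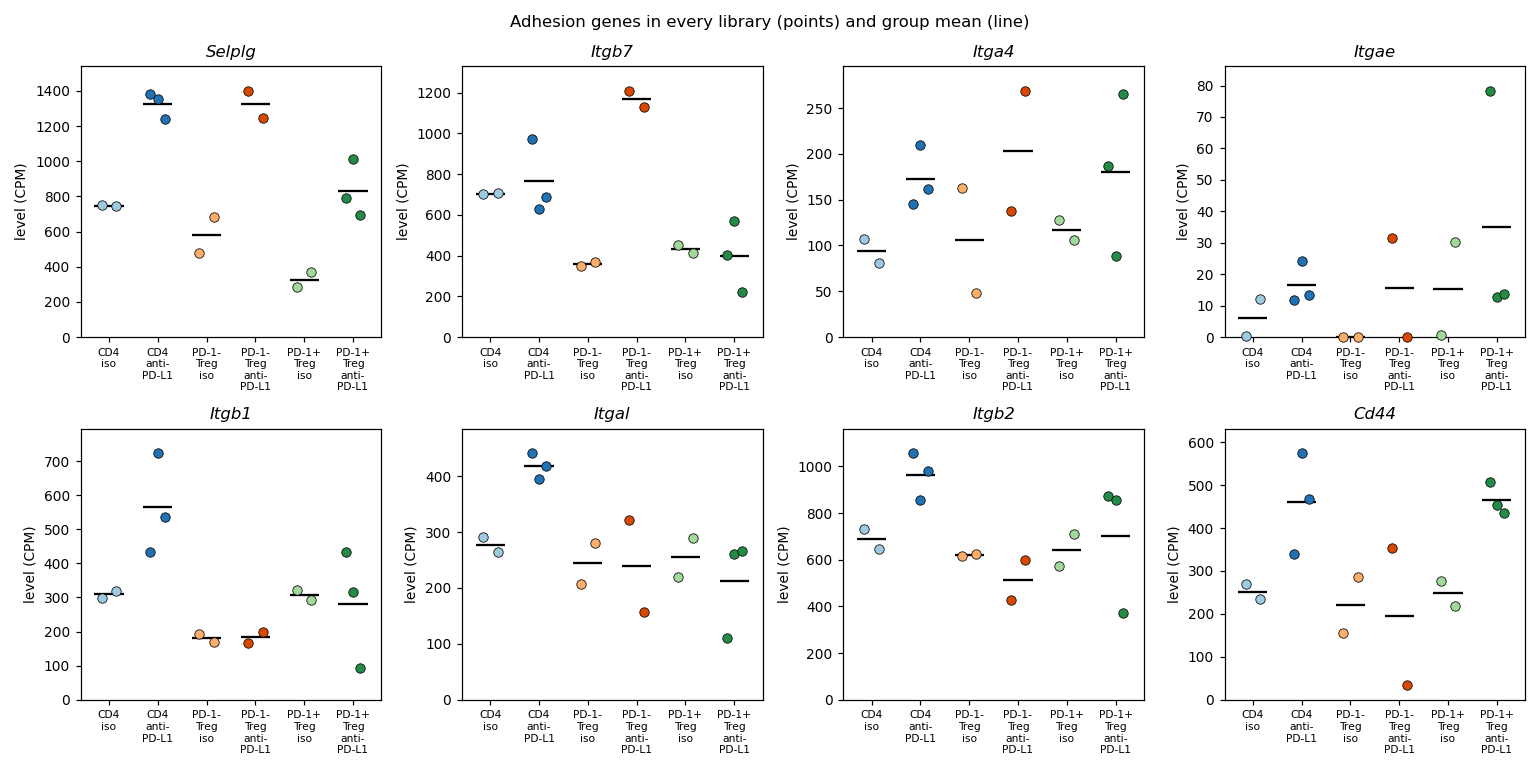
Level of each of the 8 adhesion genes in CPM (vertical axes, from 0, a different scale per gene) in the 14 libraries, shown as points, with the group mean as a line; iso is isotype. Treated libraries of Selplg lie above the isotype libraries of the same population in all 3 populations, and Itgb7 separates widely in PD-1- Tregs, at 347 and 367 against 1211 and 1129 CPM.

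Selplg, the selectin ligand, was higher after anti-PD-L1 in every population. In CD4 T cells it stood at 749 and 742 CPM under isotype and 1381, 1351 and 1242 CPM under treatment. In PD-1- Tregs it stood at 478 and 681 CPM under isotype and 1402 and 1247 CPM under treatment. In PD-1+ Tregs it stood at 282 and 371 CPM under isotype and 789.7, 1010.05 and 695 CPM under treatment. The lowest treated library thus lay above the highest isotype library in each population, a pattern that 0.625% of all genes tested showed upwards.

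Averaged over the 3 populations with equal weight, Selplg rose by 1.12 ± 0.13 on the log2 scale (SE; 2.18-fold), with an adjusted p of 0.00154 (edgeR's quasi-likelihood test, Benjamini-Hochberg adjustment over 13434 genes), and was the only one of the 8 genes to pass 0.05. Of all genes tested, 1.23% passed in this comparison, 0.722% upwards. All 8 changes were above 0, with a median of 0.55 against 0.01 over all genes tested. Without the 3 libraries with Y-linked counts, the change of Selplg was 1.18 ± 0.14 (adjusted p = 0.00734). It passed under all 25 alternatives run for this comparison, with an adjusted p of at most 0.0129.

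By population, Selplg rose by 1.19 ± 0.23 in PD-1- Tregs (2.29-fold, adjusted p = 0.0170, edgeR). The change was 0.83 ± 0.21 in CD4 T cells (adjusted p = 1, rank 22 of 13434 by p) and 1.35 ± 0.22 in PD-1+ Tregs (adjusted p = 0.115, rank 4), neither of which passed. The tests between populations did not separate these sizes: the change in PD-1- Tregs minus that in PD-1+ Tregs was -0.15 ± 0.31 (adjusted p = 1), that in PD-1- Tregs minus CD4 T cells 0.36 ± 0.31 (adjusted p = 0.742), and that in PD-1+ Tregs minus CD4 T cells 0.52 ± 0.29 (adjusted p = 1). In PD-1- Tregs the change was 1.25 ± 0.27 without all 3 libraries with Y-linked counts, which leaves 1 treated library there. The call in PD-1- Tregs was lost without isotype replicate 1 (0.95) and with library quality weights (limma-voom). It was also lost when only the PD-1- Treg libraries were fitted (adjusted p = 0.705, edgeR). In PD-1+ Tregs DESeq2, which called 4.6% of all genes there, called the rise (adjusted p = 6.23e-08).

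The order of the 6 groups for Selplg ran from treated PD-1- Tregs (1325 ± 109 CPM, SD, n = 2) and treated CD4 T cells (1324 ± 73.3, n = 3), which overlapped, to treated PD-1+ Tregs (832 ± 162, n = 3), isotype CD4 T cells (746 ± 4.82, n = 2), isotype PD-1- Tregs (579 ± 143, n = 2) and isotype PD-1+ Tregs (327 ± 62.9, n = 2). Treated PD-1+ Tregs overlapped with isotype CD4 T cells, and the remaining neighbours did not overlap. Treated PD-1+ Tregs therefore reached about the level that CD4 T cells had under isotype.

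Selplg was lower in PD-1+ Tregs than in either other population. The log2 change was -0.75 ± 0.15 against PD-1- Tregs (adjusted p = 0.0183, edgeR) and -0.93 ± 0.15 against CD4 T cells (adjusted p = 0.0174), and it was the 1 of 8 genes called in each comparison. Over all genes, 4.28% passed between the Treg populations, 0.476% downwards, and 0.35% passed between PD-1+ Tregs and CD4 T cells, 0.179% downwards. The median gene changed by 0.42 between the Treg populations and by -0.23 between PD-1+ Tregs and CD4 T cells. Within each treatment, every PD-1+ Treg library lay below every PD-1- Treg library, as for 1.32% of genes, and below every CD4 T cell library, as for 6.62%. Without the libraries with Y-linked counts the changes were -0.72 (adjusted p = 0.0628) and -0.92 (adjusted p = 0.0896) and did not pass. The first was also lost with library quality weights (adjusted p = 0.147, limma-voom), in a fit of only the groups compared (0.184, edgeR) and with the replicate block nested in treatment (0.0557). Without isotype PD-1+ Tregs replicate 1 they were -0.63 (adjusted p = 0.0929) and -0.84 (adjusted p = 0.194), and the second was also lost without isotype CD4 T cells replicate 1 (adjusted p = 0.0907) or 2 (0.104) or treated CD4 T cells replicate 1 (0.0590).

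Markers of other cells were read beside these results, because PSGL-1, LFA-1 and CD44 are also made by myeloid cells. In bulk samples, fewer cells of a type and less RNA per cell cannot be told apart. The summed level of 13 macrophage and monocyte markers was 360 to 967 CPM in isotype and 386 to 745 CPM in treated PD-1- Tregs, with C1qa, a complement gene of macrophages, at 0 in all 4 libraries. It was 3949 to 4608 and 2606 to 7031 CPM in isotype and treated CD4 T cells, and 5192 to 7798 and 3976 to 5054 CPM in isotype and treated PD-1+ Tregs. Between the Treg populations 11 of the 13 tested markers rose in PD-1+ Tregs and none fell, against 511 of 13434 genes called upwards. The median gene was higher there by 0.42 on the log2 scale. The part of such cells in the levels of the 8 genes was not tested.

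The 8 T cell identity genes in the table include Foxp3, Il2ra and Pdcd1, so their sum does not measure T cell content alone. They summed to overlapping ranges under both treatments in PD-1- Tregs (5011 to 5309 and 4557 to 5429 CPM) and in PD-1+ Tregs (4340.1 to 4681 and 4024.5 to 5472 CPM). The treated sums of CD4 T cells lay above the isotype sums (5065 to 5109.5 and 5564 to 6009 CPM, without overlap). Of the 8 changes there, 6 were above 0 and 2 below, and mean Pdcd1 went from 65.4 to 205 CPM. The part of these sums in the change of Selplg was not tested. Cd3e, a chain of the T cell receptor complex, was the gene whose levels followed Selplg most closely over the 14 libraries (r = 0.92 of log2 CPM, among 8833 genes with a mean of at least 10 CPM). It too was higher in treated libraries of all 3 populations without overlap, at 277 ± 10.6 and 468 ± 97.7 CPM in PD-1- Tregs, and its averaged change was 0.54 ± 0.12 (adjusted p = 0.053, edgeR). The next were Gpi1 (r = 0.90), a glycolytic enzyme, and Actg1 (r = 0.89), a cytoplasmic actin. These correlations rest on libraries that share treatment and population and are given as descriptions.

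Itgb7, the β chain shared by α4β7 and αEβ7, passed the test of treatment in 1 of the 3 populations. Among PD-1- Tregs it stood at 347 and 367 CPM under isotype and 1211 and 1129 CPM under treatment, counted from 3723 and 4055 against 16373 and 13424 reads. The treated libraries were the 2 highest of all 14, and the isotype libraries the 2 lowest after treated PD-1+ Tregs replicate 3. In CD4 T cells it stood at 703 and 706 CPM under isotype and 973, 628 and 689.7 CPM under treatment, and in PD-1+ Tregs at 454 and 412 CPM and 405, 571 and 221 CPM, with overlap in both populations.

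In PD-1- Tregs Itgb7 rose by 1.71 ± 0.35 on the log2 scale (3.28-fold, adjusted p = 0.0232, edgeR), which with Selplg made 2 of 8 genes called, against 2.66% of all genes tested (1.38% upwards, 1.29% downwards). These 2 genes were also the ones whose treated libraries lay above without overlap there, against 12.5% of genes, and 3 of 8 had an unadjusted p under 0.05, against 20.1%. The change was 0.12 ± 0.31 for CD4 T cells and -0.12 ± 0.31 for PD-1+ Tregs (adjusted p = 1 in each). The difference between PD-1- and PD-1+ Tregs in the change was 1.83 ± 0.47 (adjusted p = 0.0832, against 1.46% of genes called and 16.4% with an unadjusted p under 0.05), and that between PD-1- Tregs and CD4 T cells 1.60 ± 0.46 (adjusted p = 0.158, against 0.975%). No member passed in either test or in PD-1+ Tregs minus CD4 T cells (0% of genes called, 3.5% with an unadjusted p under 0.05), so the change is not shown to differ between populations; DESeq2 called both (adjusted p = 0.00239 and 0.0102, among 16.1% and 13.4% of all genes), and so did edgeR without treated PD-1+ Tregs replicate 2 (0.0281) for the first and without treated PD-1+ Tregs replicate 3 (0.0400) for the second. Without the libraries with Y-linked counts, which leaves 1 treated library in PD-1- Tregs, the change there was 1.74 ± 0.29. The call in PD-1- Tregs was lost without isotype replicate 1 or 2 of that population and with library quality weights (limma-voom). It was also lost when only the libraries of that population were fitted (adjusted p = 0.612, edgeR). The share of counts on Actb moved beside it, from 6.53% and 8.71% in the isotype to 3.16% and 2.74% in the treated PD-1- Treg libraries, and its part in the result was not tested.

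Averaged over populations, Itgb7 changed by 0.57 ± 0.19 (adjusted p = 0.186, edgeR), and by 0.67 (adjusted p = 0.0398) without treated PD-1+ Tregs replicate 3. Between populations, every PD-1+ Treg library (221 to 571 CPM) lay below every CD4 T cell library (628 to 973 CPM), as for 4.72% of genes, with a change of -0.82 ± 0.22 (adjusted p = 0.215). The change between PD-1+ and PD-1- Tregs was -0.64 ± 0.23 (adjusted p = 0.132). The 3 genes with levels closest to those of Itgb7 were Shisa5 (r = 0.94), Tap2 (r = 0.94), which encodes part of the peptide transporter of antigen presentation, and AI467606 (r = 0.93).

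**Figure D2:**
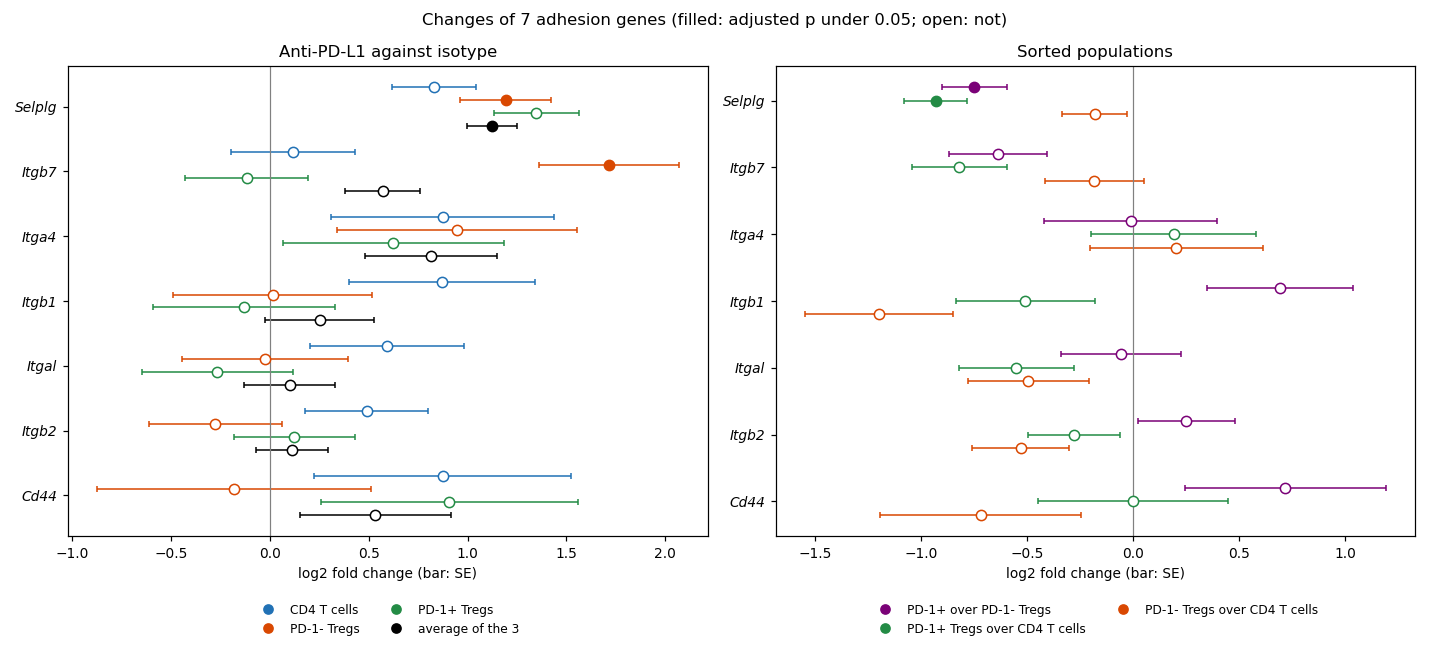
Log2 fold change with its SE (bars) of 7 adhesion genes, for anti-PD-L1 against isotype in each population and averaged (left) and between sorted populations over both treatments (right); Itgae, with libraries at 0, is left out. Filled circles passed an adjusted p of 0.05 and open circles did not. Selplg is filled for PD-1- Tregs (1.19), for the average (1.12) and for PD-1+ Tregs against both other populations (-0.75 and -0.93), and Itgb7 for PD-1- Tregs alone (1.71).

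The other β chain that takes α4, Itgb1, passed in none of them. Among PD-1- Tregs it stood at 193 and 169.6 CPM under isotype and 168 and 199 CPM under treatment, a change of 0.01 ± 0.50 (adjusted p = 1, edgeR). In CD4 T cells it stood at 299 and 319 CPM under isotype and 435, 724 and 537 CPM under treatment, and in PD-1+ Tregs at 322 and 293 CPM and 433, 316 and 93.0 CPM. The groups overlapped in both Treg populations and did not in CD4 T cells, where the change was 0.87 ± 0.47 (adjusted p = 1).

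In PD-1- Tregs as a whole Itgb1 was low: all 4 libraries (168 to 199 CPM) lay below all 5 CD4 T cell libraries (299 to 724 CPM). This was so for 13% of all genes (15.2% within each treatment), and the median gene was lower by -0.94 on the log2 scale in that comparison. The change of Itgb1 was -1.20 ± 0.35 (adjusted p = 0.0729), and it passed without the libraries with Y-linked counts (-1.31, adjusted p = 0.0290) and without treated PD-1+ Tregs replicate 3 alone (-1.20, adjusted p = 0.00925). That last library held the lowest Itgb1 of all 14, and without it Itgb1 was also higher in PD-1+ than in PD-1- Tregs (0.90, adjusted p = 0.0263, against 0.69 ± 0.34 and 0.268 with it).

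The ratio of Itgb7 to Itgb1, in RPKM within a library, shows both chains at once. For PD-1- Tregs it was 2.83 and 3.40 under isotype and 11.4 and 8.94 under treatment. In CD4 T cells it was 3.70 and 3.48 under isotype and 3.52, 1.36 and 2.02 under treatment, and in PD-1+ Tregs 2.22 and 2.21 under isotype and 1.47, 2.84 and 3.73 under treatment. The 2 treated PD-1- Treg libraries stood above all 12 others, of which none passed 3.73. Since Itgb1 changed by only 0.01 ± 0.50 in PD-1- Tregs, the ratio there restates the rise of Itgb7. It was not tested, and no share over other pairs of genes was computed.

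**Figure D3:**
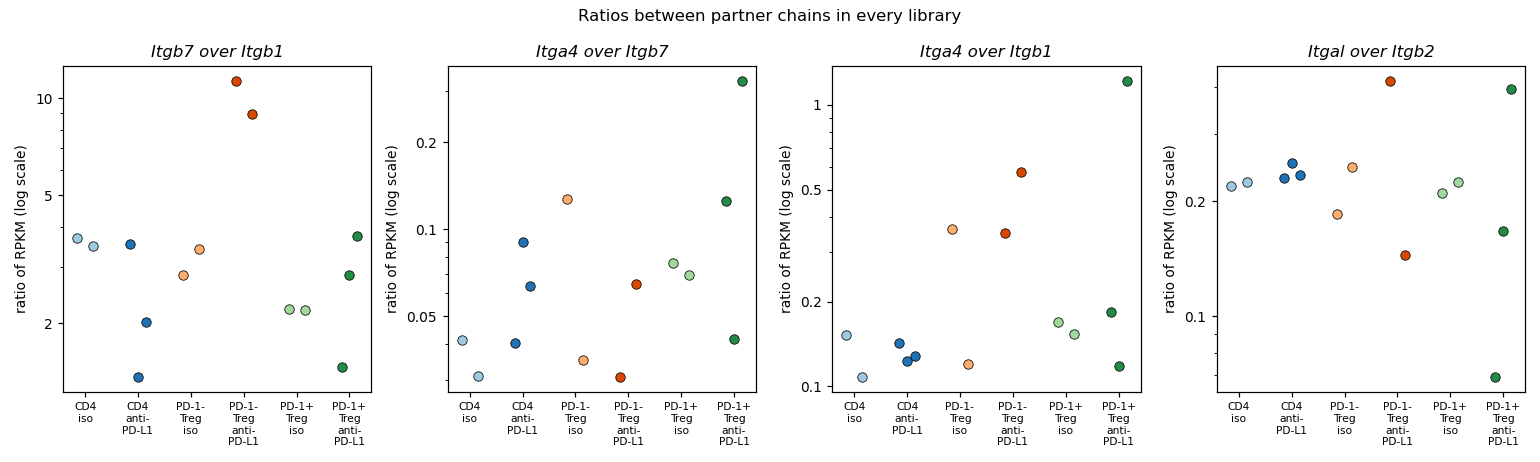
Ratio of RPKM between partner or competing chains in each of the 14 libraries (vertical axes, log scale), by population and treatment. Itgb7 over Itgb1 reaches 8.94 and 11.4 in treated PD-1- Tregs and at most 3.73 elsewhere; Itgal over Itgb2 lies between 0.186 and 0.253 in isotype libraries and treated CD4 T cells and between 0.0694 and 0.415 in treated Tregs.

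Itga4, the α4 chain itself, was low and uneven. It stood at 107 and 80.9 CPM in isotype and 145, 209.6 and 162 CPM in treated CD4 T cells, which did not overlap. PD-1- Tregs held it at 163 and 47.8 CPM under isotype and 138 and 269 CPM under treatment, and in PD-1+ Tregs at 128 and 106 CPM under isotype and 187, 88.0 and 266 CPM under treatment, with overlap in both. The highest values in each Treg population, 269 and 266 CPM, were those of the libraries with Y-linked counts. The averaged change was 0.82 ± 0.33 (adjusted p = 0.274, edgeR), and 0.49 ± 0.37 (adjusted p = 0.646) without those libraries. Nearest to Itga4 over the 14 libraries were Neurl3 (r = 0.86), Yaf2 (r = 0.84) and Eid1 (r = 0.81).

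Itgae, the αE chain known as CD103 and a marker of tissue-resident T cells, was found in few reads and not in every library. It was at 0.219 and 12.1 CPM in isotype and 11.7, 24.2 and 13.4 CPM in treated CD4 T cells. Among PD-1- Tregs it was at 0 in both isotype libraries and in 1 of 2 treated libraries, and at 31.4 CPM (424 counts) in the other. In PD-1+ Tregs it was at 0.594 and 30.2 CPM under isotype and 78.4, 12.8 and 13.7 CPM under treatment. Groups overlapped in every population.

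The mean of Itgae in treated PD-1- Tregs was 15.7 CPM, but all its counts came from 1 library, and the test did not pass (adjusted p = 0.18, edgeR). No fold is given, since replicates of the same group stood far apart. They held 3 and 167 counts in isotype CD4 T cells, and 7 and 382 counts in isotype PD-1+ Tregs. DESeq2 called Itgae in PD-1- Tregs (adjusted p = 2.35e-16), on the counts of that 1 library, and in the average (4.26e-09). A floor of 3 counts stood at a mean of 0.275 CPM in the isotype PD-1- Treg libraries and covers counting error only. The changes were 1.41 ± 2.43 for CD4 T cells and 1.19 ± 2.41 for PD-1+ Tregs (adjusted p = 1 in each). The genes nearest to Itgae were Rnh1 (r = 0.87), Zfp959 (r = 0.86) and Cd320 (r = 0.85).

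The chains of LFA-1 were higher in every treated than in every isotype library of CD4 T cells. Itgal stood at 291 and 264 CPM under isotype and 441, 394 and 418 CPM under treatment there, and Itgb2 at 729.6 and 645 CPM and 1057, 858 and 981 CPM. The changes, 0.59 ± 0.39 for Itgal and 0.49 ± 0.31 for Itgb2, did not pass (adjusted p = 1, edgeR). In CD4 T cells 6 of the 8 genes, Selplg, Itga4, Itgb1, Itgal, Itgb2 and Cd44, had every treated library above both isotype libraries, against 12.5% of all genes tested, and none was called, against 0.00744%.

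That 0 of 8 in CD4 T cells stands beside 1 gene with an unadjusted p under 0.05 (1.15% of all genes), 1 call by DESeq2 (Selplg, adjusted p = 0.0376), 0 by limma-voom and 4 by limma-voom with library quality weights (Selplg, Itgb1, Itgal and Itgb2, adjusted p of 3.28e-05, 0.0477, 0.0155 and 0.0116). Over all genes these tools called 0.402%, 0.00744% and 2.27%. The median change of the 8 genes was 0.85, against -0.01 over all genes tested. Between them, 8 of 8 changes were above 0.

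In the Tregs the LFA-1 chains were uneven. In PD-1- Tregs Itgal stood at 208 and 279.6 CPM under isotype and 322 and 157 CPM under treatment, and Itgb2 at 617 and 624 CPM and 427 and 597 CPM. Itgb2 was thus lower in both treated libraries, as were 14% of all genes, with a change of -0.28 ± 0.34 (adjusted p = 0.813, edgeR). In PD-1+ Tregs Itgal stood at 219.7 and 290.1 CPM under isotype and 109.9, 259.8 and 266 CPM under treatment, and Itgb2 at 575 and 711 CPM and 872, 856 and 372 CPM, with overlap for both.

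The RPKM of Itgal was 0.186 to 0.247 times that of Itgb2 in the 6 isotype libraries, 0.230 to 0.253 times in treated CD4 T cells, and from 0.0694 to 0.415 times in the 5 treated Treg libraries. Itgb2 was lower in all PD-1- Treg libraries (427 to 624 CPM) than in all CD4 T cell libraries (645 to 1057 CPM), with a change of -0.53 ± 0.23 (adjusted p = 0.154), and 0.0496 without treated PD-1+ Tregs replicate 3. Itgam, which encodes the chain that pairs with Itgb2 in the myeloid integrin Mac-1, was at 0 to 5.61 CPM in PD-1- Tregs and 27.8 to 183 CPM in the other 10 libraries, and its part in the Itgb2 level was not tested. No member was called between PD-1- Tregs and CD4 T cells, against 3.6% of all genes (2 had an unadjusted p under 0.05, against 28.6%; DESeq2 called 2, Itgb1 and Itgae, and limma-voom 0, against 23.3% and 24.8%).

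Itgb2 and Itgb1 were the pair among the 8 genes that varied most alike over the 14 libraries (r = 0.86), followed by Itgae with Cd44 and Selplg with Itgb7 (r = 0.65 each). Itgal and Itgb2, the 2 chains of LFA-1, had r = 0.21. Nearest to Itgal were Bin2 (r = 0.88), Mtfr1l (r = 0.86) and Yy1 (r = 0.85); nearest to Itgb2, after Itgb1, were Ctu2 (r = 0.84) and Rad21 (r = 0.83); and nearest to Itgb1 were Txlng (r = 0.88) and B4gat1 (r = 0.87). The points are libraries that share group and depth, so these are descriptions.

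Cd44, the hyaluronan receptor, had higher treated than isotype levels in PD-1+ Tregs and CD4 T cells. It stood at 269 and 234 CPM under isotype and 338, 575 and 469 CPM under treatment in CD4 T cells. PD-1+ Tregs held it at 277 and 219 CPM and at 508, 454 and 434 CPM. PD-1- Tregs held it at 155 and 285 CPM under isotype and 353 and 35.1 CPM under treatment, and the 35.1 CPM, in a library with Y-linked counts, was the lowest of all 14.

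The changes of Cd44 were 0.87 ± 0.65 in CD4 T cells (adjusted p = 1), -0.18 ± 0.69 in PD-1- Tregs (adjusted p = 1) and 0.91 ± 0.65 in PD-1+ Tregs (adjusted p = 0.846, edgeR). In PD-1- Tregs each treated library alone decided the value: it was -2.65 (adjusted p = 0.00422) without replicate 1 and 0.67 without replicate 2. In the average it was 0.53 ± 0.38 (adjusted p = 0.652), and 0.81 (adjusted p = 0.0423) without that replicate 2. Without treated PD-1- Tregs replicate 1, Cd44 was also called between PD-1+ and PD-1- Tregs (1.95, adjusted p = 0.00155, against 0.72 ± 0.47 and 0.452) and between PD-1- Tregs and CD4 T cells (-1.97, adjusted p = 0.00164, against -0.72 ± 0.47 and 0.363). In PD-1+ Tregs 0 of 8 genes were called, against 0.0149% of all genes tested. Only Selplg had an unadjusted p under 0.05 there (8.06% of genes), DESeq2 called 1 and limma-voom 0, against 4.6% and 1.14% of genes, and 2 genes, Selplg and Cd44, did not overlap upwards, against 7.69% of genes. Nearest to Cd44 over the libraries were Ifitm1 (r = 0.94), an interferon-induced gene, Cnpy4 (r = 0.93) and Dnajc1 (r = 0.93).

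Lists of other adhesion genes were read with the same tests. Apart from the count of the first list, their calls are not given without the libraries with Y-linked counts. Those libraries include 1 of the 2 treated PD-1- Treg libraries. Of 31 genes of integrin activation and adaptors, 2 rose in treated PD-1- Tregs and none fell, against 1.38% of all genes upwards: Fermt3, which encodes kindlin-3, the protein that switches leukocyte integrins on together with talin, by 2.61 ± 0.60 (78.2 ± 50.2 to 478 ± 243 CPM, n = 2 each, adjusted p = 0.0397, edgeR), and Ilk, the integrin-linked kinase, by 2.24 ± 0.51 (73.1 ± 40.8 to 345 ± 52.6 CPM, adjusted p = 0.0393). The list's median change was 0.51, against 0.00 for all genes tested. The count of 2 ranged from 0 to 4 when each library was left out, being 0 without any 1 of the 5 CD4 T cell libraries, and was 2 without the libraries with Y-linked counts. Both calls were lost with library quality weights (limma-voom) and when only the PD-1- Treg libraries were fitted, as was every call there. In PD-1+ Tregs and CD4 T cells none of the 31 was called, with medians of -0.06 and 0.07. The difference of the change from PD-1+ Tregs was 2.57 ± 0.77 for Fermt3 and 2.34 ± 0.67 for Ilk (adjusted p = 0.132 and 0.115), so it is not shown to differ between populations.

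Of 10 tested genes of the list of integrin and selectin ligands, Icam1 rose in treated PD-1- Tregs. Icam1, the main ligand of LFA-1, was at 1.86 and 0 CPM under isotype and 189 and 123 CPM under treatment (adjusted p = 0.0185, edgeR). No size is given, since 1 isotype library was at 0. The call of Icam1 was lost with library quality weights (limma-voom) and when only the PD-1- Treg libraries were fitted, as was every call there. Among PD-1+ Tregs its levels were 22.1 to 40.9 CPM under isotype and 75.9 to 102 CPM under treatment, without overlap, and in CD4 T cells 59.2 to 65.8 and 41.2 to 79.4 CPM, with overlap. The list's median change in PD-1- Tregs was 0.00, and in PD-1+ Tregs and CD4 T cells, where none of the 10 was called, 0.58 and 0.52.

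Between the Treg populations Fn1, fibronectin, the ligand of α4β1, rose by 2.30 ± 0.40 in PD-1+ Tregs (adjusted p = 0.00955, edgeR), and F11r, the junctional molecule JAM-A, also rose (adjusted p = 0.0400). These were 2 of the 10 genes, against 511 of 13434 genes called upwards, and Icam1 was not called (adjusted p = 0.132, edgeR). Between PD-1- Tregs and CD4 T cells Fn1 and F11r fell. Fn1 is also a product of stromal and myeloid cells, and their part in it was not tested.

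Among 23 tested other T cell adhesion molecules, 4 rose in treated PD-1- Tregs and none fell, against 1.38% of all genes upwards. They were Cd82, a tetraspanin that organises integrins in the membrane (84.1 ± 30.6 to 657 ± 54.3 CPM, 2.97 ± 0.29, adjusted p = 0.000944), Cd6, a receptor for the adhesion molecule ALCAM (91.4 ± 9.30 to 614 ± 127 CPM, 2.75 ± 0.66, adjusted p = 0.0481), Cd151, another tetraspanin, listed at 0 in both isotype libraries and at 83.0 and 85.7 CPM in the treated ones, and Jaml, a junctional adhesion receptor, at 0 and 0.0905 against 39.4 and 57.3 CPM. The list's median change was 0.19. The count of 4 ranged from 3 to 5 when each library was left out. It was 0 with library quality weights (limma-voom) or when only these libraries were fitted, and 8 by DESeq2, which called 20.5% of all genes there. For Cd82 and Cd151 the change in PD-1- Tregs exceeded that in PD-1+ Tregs (adjusted p = 0.00733 and 0.0166) and that in CD4 T cells (adjusted p = 0.0109 and 0.0161), and for Jaml that in PD-1+ Tregs (adjusted p = 0.0424). The differences of Cd82 were 2.64 ± 0.37 and 2.38 ± 0.37 on the log2 scale; no size is given for Cd151 and Jaml, whose isotype libraries were at or near 0.

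Averaged over populations, Cd82 rose by 1.29 ± 0.15 (adjusted p = 0.00216) and Jaml and Cd151 were called upwards, while Cd69, an early activation molecule that holds T cells in tissue, fell by 0.95 on the log2 scale (SE 0.16, adjusted p = 0.0126). Cd69 was at 481 and 705 CPM in isotype and 299, 309 and 350 CPM in treated CD4 T cells, and was lower in the treated libraries of PD-1- Tregs (371 and 593 against 723 and 955 CPM) and PD-1+ Tregs (208 to 254 against 435 to 639 CPM) too. The call of Cd151 rests on PD-1- Tregs, where it was at 0 under isotype: in CD4 T cells it was lower after treatment without overlap (35.9 to 38.4 against 12.6 to 19.7 CPM), and in PD-1+ Tregs the ranges overlapped (12.2 to 29.4 and 13.2 to 36.4 CPM). The averages of Cd82 and Jaml also draw much on PD-1- Tregs. In PD-1+ Tregs their ranges overlapped (516 to 711 and 626 to 894 CPM for Cd82, 20.9 to 52.1 and 13.0 to 161 CPM for Jaml). In CD4 T cells both were higher after treatment without overlap (558 to 614 against 762 to 995 CPM, and 26.7 to 26.8 against 50.6 to 72.4 CPM). The count of 4 averaged calls ranged from 1 to 7 when each library was left out. Cd81, a tetraspanin, rose in PD-1+ Tregs against CD4 T cells by 1.55 ± 0.28 (adjusted p = 0.0333, edgeR), the 1 call among these 23 genes there. Between the Treg populations 4 of the 23 rose in PD-1+ Tregs and 1 fell, against 511 and 64 of 13434 genes. In PD-1- Tregs against CD4 T cells 3 of the 23 fell and 0 rose, against 447 and 37 of 13434 genes.

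**Figure D4:**
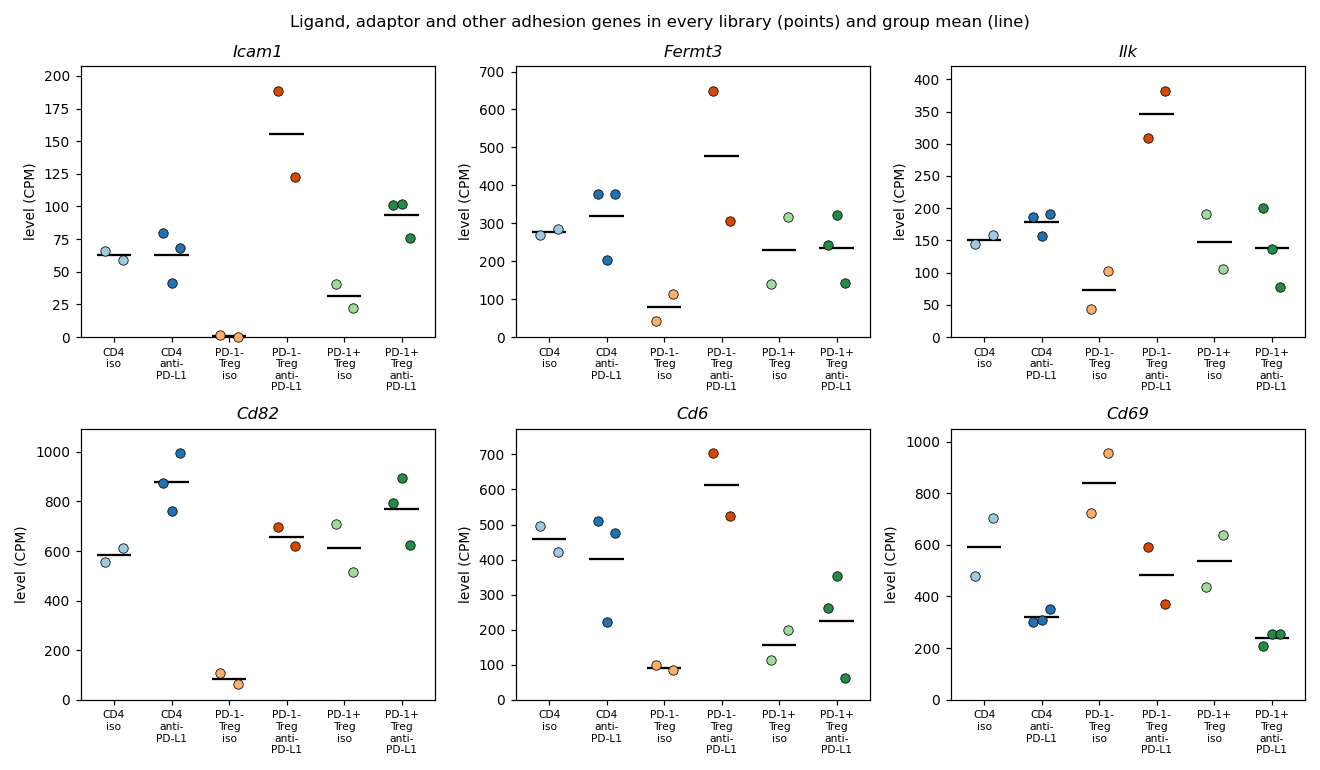
Level in CPM (vertical axes, from 0) of Icam1, Fermt3, Ilk, Cd82, Cd6 and Cd69 in each of the 14 libraries (points), with group means (lines). In PD-1- Tregs Icam1, Fermt3, Ilk, Cd82 and Cd6 go from means of 0.931, 78.2, 73.1, 84.1 and 91.4 CPM under isotype to 156, 478, 345, 657 and 614 CPM under anti-PD-L1, and Cd69 is lower in treated libraries of every population.

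PSGL-1 binds selectins only once enzymes have put sugars on it. Of 14 genes of that synthesis, 1 rose in treated PD-1- Tregs, Galnt1, which starts O-linked sugar chains (0.409 ± 0.446 to 9.03 ± 3.13 CPM, adjusted p = 0.0493, with no size given at so low an isotype level), and none was called in the other populations or in the average, where the median change was 0.01. That call of Galnt1 was lost with library quality weights (limma-voom) and when only the PD-1- Treg libraries were fitted, as was every call there. The fucosyltransferase gene Fut7, needed for selectin binding, was at 0 in all 4 PD-1- Treg libraries, at 4.97 to 12.5 CPM in CD4 T cells and 0 to 29.8 CPM in PD-1+ Tregs. Galnt1 and Fut7 rose in PD-1+ against PD-1- Tregs (adjusted p = 0.00345 and 0.0479, edgeR), against 511 of 13434 genes called upwards. The median gene was higher there by 0.42 on the log2 scale, and Selplg fell. Fut7 was also at 0 in treated PD-1+ Tregs replicate 1. Galnt1 fell in PD-1- Tregs against CD4 T cells (adjusted p = 0.00596, edgeR), against 447 of 13434 genes called downwards. No sizes are given at such low levels in PD-1- Tregs, whose libraries held the fewest genes with a count.

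Of 17 tested genes of CD44 partners and hyaluronan, none was called by treatment in any population or in the average, with medians of -0.02, 0.33, 0.41 and 0.26 for CD4 T cells, PD-1- Tregs, PD-1+ Tregs and the average. Between the Treg populations Cd74, the invariant chain of MHC class II and a partner of CD44, rose in PD-1+ Tregs (1.45 ± 0.23, adjusted p = 0.00594), and Ezr, ezrin, which ties CD44 and PSGL-1 to the cytoskeleton, fell by 1.06 (SE 0.23, adjusted p = 0.0272). Of 13 tested other integrin subunits none was called by treatment, with medians of 0.46, 0.16, 0.02 and 0.76 in the same order. Itgam rose in PD-1+ against PD-1- Tregs (adjusted p = 0.0196, edgeR) and fell in PD-1- Tregs against CD4 T cells (adjusted p = 0.0281). No sizes are given, since Itgam was at only 0 to 5.61 CPM in PD-1- Tregs.

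The remaining marker lists give what else the sorted cells held. For 12 genes of dendritic cells and MHC class II, summed levels were 14701 to 16130 CPM in isotype and 9054 to 11286 CPM in treated PD-1- Tregs, and 15770 to 49890 CPM in the other 10 libraries. Of the 12, 6 rose in PD-1+ against PD-1- Tregs, against 511 of 13434 genes called upwards. B cell markers summed to 199 and 222 CPM in isotype and 54.1 to 83.0 CPM in treated CD4 T cells, and to 199 and 425 CPM and 22.9 to 82.2 CPM in PD-1+ Tregs, so they were lower in treated libraries there, and to 42.0 to 304 CPM in PD-1- Tregs. Neutrophil and mast cell markers were at 0 in both isotype and 17.5 and 56.9 CPM in treated PD-1- Tregs, and 4.50 to 38.3 CPM elsewhere. Markers of CD8 T and NK cells summed to at most 141 CPM, and those of mesothelial tumour and stroma to 292 to 1656 CPM with overlap between treatments in the Tregs and less in treated (292 to 785) than isotype (1115 and 1459 CPM) CD4 T cells. Of the tested genes of these 5 lists none was called by treatment, and 1 of 13 macrophage markers fell in PD-1- Tregs and in the average. Their part in the results on the 8 genes was not tested.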

How the data were processed

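The 8 genes and the gene lists were chosen with earlier results of these data known. RNA of sorted cells was amplified with Smart-seq2, which adds no molecular identifiers, so floors cover counting error only. Per the labels, the deposited table gives every gene in each library an unnormalized count and an RPKM, both as the authors made them. HISAT2 2.0.4, SAMtools, HOMER 3.12, DESeq2 and mm10 are named per the submitters' processing notes; annotation and counting settings were not stated.

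Counts were tested with edgeR 4.0.16 (R 4.3.3): filterByExpr at a minimum count of 10, TMM scaling, and the robust quasi-likelihood test in 1 fit of 6 group means over 14 libraries, with Benjamini-Hochberg adjustment over 13434 genes per comparison and a threshold of 0.05. The common biological coefficient of variation was 1.22. SE is the log2 change over the square root of F. CPM use TMM-scaled library sizes without a prior count. The authors' RPKM values served to compare genes and, with 1 or 0.1 added, as limma alternatives. DESeq2 1.42.0, limma 3.58.1 (voom, with and without quality weights), other scaling and filters, fits of the compared groups, replicate blocks and leaving out libraries were alternatives. The fit was tested on simulated data. The list of integrin and selectin ligands leaves out 1 gene, which is not reported here. Named from each list were at most the 4 genes with the smallest p in a comparison, and for each of the 8 genes the 3 with the highest r (prior count 2, mean of at least 10 CPM).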

Additional observations from a re-analysis of the deposited data

How the results depend on the processing

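The rise of Selplg averaged over the populations passed under all 25 alternatives (log2 1.02 to 1.19, edgeR, DESeq2 and limma). The number of the 8 genes called was otherwise set by the tool and the libraries, and the cause was not tested. Beside the numbers by tool, and by fit of only the groups compared, stands the share of all genes called. The numbers for left-out libraries and replicate blocks are given without that share, so they cannot be read against all genes. DESeq2 called 1 for treatment in CD4 T cells (0.402%), 3 for treatment of PD-1- Tregs (20.5%), 1 for treatment of PD-1+ Tregs (4.6%), 3 in the average (14.1%), 3 for PD-1+ against PD-1- Tregs (22.1%), 2 for PD-1+ Tregs against CD4 T cells (5.52%), 2 for PD-1- Tregs against CD4 T cells (23.3%), and 2 for each treatment difference of PD-1- Tregs (16.1% from PD-1+ Tregs, 13.4% from CD4 T cells). Limma-voom called 2 for PD-1+ Tregs against CD4 T cells (4.25%); with quality weights it called 4 for treatment in CD4 T cells (2.27%), 0 for treatment of PD-1- Tregs (0%) and 0 between the Treg populations (0%). Fits of only the groups compared called 0 in PD-1- Tregs (0%), 0 between the Treg populations (0.283%) and 1 for PD-1- Tregs against CD4 T cells (11.2%). Without the libraries with Y-linked counts these population comparisons gave 0 (PD-1+ against PD-1- Tregs), 0 (PD-1+ Tregs against CD4 T cells) and 1 (PD-1- Tregs against CD4 T cells). Leaving out each library gave 0 to 3 called for treatment in PD-1- Tregs, 1 to 2 in the average, 0 to 3 between the Treg populations, 0 to 1 for PD-1+ Tregs against CD4 T cells, 0 to 2 for PD-1- Tregs against CD4 T cells, and 0 to 1 for each treatment difference of PD-1- Tregs. A lone library left in an arm was assumed to vary like the others.

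Deviations of libraries with the same title number correlated at -0.0333 to 0.0740 over 31 pairs. Over the 13 pairs that share the bracketed number and treatment they correlated at 0.00203 to 0.0354, and over 43 pairs with different numbers at -0.0740 to 0.0449. With 2 or 3 libraries per group, such weak correlations cannot decide whether a number marks a shared source. The 3 libraries with Y-linked counts do share the bracketed number 3. The replicate block nested in treatment gave 0 called between the Treg populations, and the other blocks changed no number of members called.

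Signs turned for changes near 0, none of them called by the fit of the report. For treatment in PD-1- Tregs, Itgal was 0.045 by DESeq2, 0.045 with RLE factors, 0.083 and 0.083 from RPKM, 0.0024 with the replicate block and 0.38 without the Y-linked libraries; Itgb1 was -0.00095 with quality weights, -0.0088 with a filter of 100 counts and -0.14 without the Y-linked libraries, where Cd44 was 0.66. In treated PD-1+ Tregs, Itgb2 was -0.095 and -0.096 from RPKM, and Itgb7 and Itgb1 were 0.030 and 0.011 with the block and 0.14 and 0.26 without the Y-linked libraries. Between the Treg populations Itga4 was 0.071 by voom, 0.030 with weights, 0.020 and 0.043 from RPKM, 0.014 with the bracketed block, 0.095 with the nested block and 0.084 without the Y-linked libraries, and Itgal 0.023 with the nested block. Between PD-1+ Tregs and CD4 T cells Cd44 was 0.037 by DESeq2, 0.027 by voom, 0.077 with weights, 0.037 with RLE factors, 0.0087 and 0.026 with the blocks and 0.0080 without the Y-linked libraries, where Itga4 was -0.044 (and -0.13 for PD-1- Tregs against CD4 T cells). The treatment difference of Selplg between the Treg populations was 0.18 and 0.18 from RPKM.

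Leaving out each library, treatment in PD-1- Tregs ranged from -2.65 to 0.67 for Cd44, 0 to 11.59 for Itgae, -0.64 to 0.39 for Itgal and -0.13 to 0.13 for Itgb1. In PD-1+ Tregs it ranged from -0.21 to 5.84 for Itgae, -0.49 to 0.045 for Itgal, -0.59 to 0.29 for Itgb1, -0.066 to 0.43 for Itgb2 and -0.47 to 0.17 for Itgb7. In CD4 T cells it ranged from -0.12 to 0.24 for Itgb7, and in the average from -0.31 to 0.81 for Cd44 and -0.12 to 0.23 for Itgal. Between PD-1+ Tregs and CD4 T cells the ranges were -0.11 to 0.094 for Cd44, -0.0031 to 0.36 for Itga4 and -1.16 to 3.57 for Itgae. They were -0.33 to 0.56 for Itga4 and -0.25 to 0.24 for Itgal between the Treg populations, and -0.39 to 0.50 for Itga4 between PD-1- Tregs and CD4 T cells. The treatment difference ranged from -0.59 to 0.056 for Itgb7 (PD-1+ Tregs minus CD4 T cells) and -0.36 to 0.14 for Selplg (PD-1- minus PD-1+ Tregs).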
